A study of Mus musculus with 30 samples.

Results

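Serpin genes were followed in 24 poly(A) RNA-seq libraries of mouse neural progenitor cells (NPCs). The members are the genes whose symbol is Serpin, a clade letter from a to i, a number and at most a copy letter, and 63 of the 25400 genes in the deposited count matrix met this rule. Of these 63 genes, 56 had at least 1 read in the 24 libraries and 26 had enough reads to be tested.

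NPCs were derived over 8 days from HA36CB1 mouse embryonic stem cells (ESCs), a line of mixed strain background, and 8 lines with 3 libraries each were sequenced. WT cells carried no deletion. In Mbd3 KO cells, exons 2 and 3 of Mbd3 had been targeted with CRISPR-Cas9. The other 6 lines were Mbd3 KO cells with a biotin-tagged construct under the CAG promoter at 1 integration site: MBD3a, MBD3ΔMBD (labelled MBD3dMBD, without the methyl-CpG binding domain), MBD2a (labelled MBD2aFL), MBD2aΔGR (labelled MBD2a-GR, without the glycine-arginine stretch), MBD2aR181C (with a point mutation in the methyl-CpG binding domain) and MBD2t (a truncated form). All 6 therefore share the Mbd3 deletion, and their constructs are driven by a foreign promoter. The 3 libraries of a line stand for 3 separately derived clones, but for MBD2t, where 1 clone was sequenced as 3 technical repeats. The deposited columns name the point mutant R64C, the labels R181C and the paper's text R191C. These names were matched because no other point mutant is among the lines. MBD2 and MBD3 are subunits of the NuRD chromatin remodelling complex, and the lines compare which parts of either protein bring gene expression back to that of WT cells.

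Serpins are a family of protease inhibitors that work as suicide substrates. The target protease cleaves an exposed reactive loop, the serpin changes its fold, and the protease stays trapped on it. Clade B serpins act mostly inside cells, among them Serpinb9, the inhibitor of granzyme B, while most other clades are secreted and restrain clotting, fibrinolysis or complement. A few members have lost inhibition and serve as hormone carriers (Serpina6, Serpina7) or as the collagen chaperone of the endoplasmic reticulum (Serpinh1, HSP47). In the nervous system, Serpini1 (neuroserpin) and Serpine2 (protease nexin 1) restrain tissue plasminogen activator and thrombin, and several copies of Serpinb9 in the mouse are known from placenta.

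Most members lie in 3 arrays of neighbouring copies (mm9). The array on chromosome 13, from 32933961 to 34094663, holds 16 clade B members, all of them Serpinb1, Serpinb6 or Serpinb9 copies, and 12 of them were tested. The array on chromosome 12, from 104854885 to 105652539, holds 23 clade A members, of which 3 were tested. The array on chromosome 1, from 108757750 to 109505486, holds 12 clade B members, of which only Serpinb5 and Serpinb8 were tested. By clade, 4 of 24 members of clade A, 14 of 28 of clade B, both of clade F, 1 of 2 of clade I and the single members of clades C, G and H were tested, and the single member of clade D, Serpind1, was not.

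Close copies share reads, which limits what can be said of a single gene. Of the 150-base stretches in its exons, Serpinb9h shares 58.79% exactly with Serpinb9f or Serpinb9g, Serpinb9f shares 38.34% and Serpinb9g 30.98%, so the split of reads among these 3 genes is uncertain. Serpinb9e shares 1.81% and Serpinb9d 1.18%, and the other tested members share no such stretch with another member. In the Serpina1 array the shared part runs from 7.36% for Serpina1e to 50.5% for Serpina1c. Exons of Serpinb6a overlap Nqo2, Ripk1 and 1110046J04Rik on the opposite strand, and whether the counting used the strand is not given in the sources used here.

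The promoter stretches of Serpinb9 copies are shown because these genes moved together in the results below and because MBD2 binds methylated CpG. RefSeq gives 300-base stretches around the starts of 54 of the 63 members on GRCm38.p6, a later build than the mm9 of the read counts. The capitals mark CpG dinucleotides in each stretch, printed 5′ to 3′.
Serpinb9d, GRCm38.p6 chr13:33192705-33193004, strand +: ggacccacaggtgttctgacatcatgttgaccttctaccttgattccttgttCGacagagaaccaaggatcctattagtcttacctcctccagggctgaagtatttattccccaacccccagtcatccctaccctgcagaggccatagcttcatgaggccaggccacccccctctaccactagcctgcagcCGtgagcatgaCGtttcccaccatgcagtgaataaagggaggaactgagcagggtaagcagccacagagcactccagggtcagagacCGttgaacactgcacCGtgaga
Serpinb9e, GRCm38.p6 chr13:33249358-33249657, strand +: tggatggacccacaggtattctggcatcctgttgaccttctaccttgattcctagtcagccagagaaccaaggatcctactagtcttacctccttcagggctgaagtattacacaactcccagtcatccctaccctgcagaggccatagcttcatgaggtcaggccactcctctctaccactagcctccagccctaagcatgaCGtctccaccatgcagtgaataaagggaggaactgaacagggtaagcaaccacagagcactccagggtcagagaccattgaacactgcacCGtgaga
Serpinb9f, GRCm38.p6 chr13:33323827-33324126, strand +: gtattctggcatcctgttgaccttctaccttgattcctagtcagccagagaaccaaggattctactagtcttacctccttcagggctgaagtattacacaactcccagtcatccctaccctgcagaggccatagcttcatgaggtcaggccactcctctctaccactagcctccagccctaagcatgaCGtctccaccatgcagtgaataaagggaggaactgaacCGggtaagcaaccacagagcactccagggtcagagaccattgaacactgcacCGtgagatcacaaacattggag
Serpinb9g, GRCm38.p6 chr13:33484540-33484839, strand +: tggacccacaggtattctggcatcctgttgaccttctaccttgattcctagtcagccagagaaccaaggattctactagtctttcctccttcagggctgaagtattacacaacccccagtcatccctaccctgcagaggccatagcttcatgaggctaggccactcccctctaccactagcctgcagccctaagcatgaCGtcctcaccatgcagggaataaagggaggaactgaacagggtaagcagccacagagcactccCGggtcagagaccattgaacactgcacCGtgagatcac
Serpine2, GRCm38.p6 chr1:79858616-79858915, strand -: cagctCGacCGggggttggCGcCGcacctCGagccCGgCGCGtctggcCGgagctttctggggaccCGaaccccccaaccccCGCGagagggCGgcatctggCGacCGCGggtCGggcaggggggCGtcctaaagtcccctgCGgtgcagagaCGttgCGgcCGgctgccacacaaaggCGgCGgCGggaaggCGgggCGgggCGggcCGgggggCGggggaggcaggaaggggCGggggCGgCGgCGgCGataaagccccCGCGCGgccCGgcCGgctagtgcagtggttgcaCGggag
The 4 Serpinb9 stretches were between 82.9% and 93.4% identical to each other, so they are not independent examples. The stretch of Serpinb9h, a gene that moved with these 4 and is not printed, was 17.8% to 20.1% identical to them. They held 5, 2, 3 and 3 CpG, and the 9 stretches of the 8 Serpinb9 genes held a median of 3 (range 2 to 9), against a median of 7 over all 32851 mouse promoters in the table. Serpine2, at the other end, held 41 CpG. No methylation or binding data were analysed here, so the CpG count is a feature of the sequence alone.

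Library totals ran from 27993858 to 49392806 counts (median 36797095), and 3 counts, the limit that a count of 0 allows, correspond to 0.0607 to 0.115 CPM. CPM here are counts scaled to library size after TMM normalization, and limits of this kind cover counting error only. Reads of the targeted gene remained in the Mbd3 KO libraries, at 34.2 to 73.8 CPM against 149 to 157 CPM in WT, and the total over the gene does not show the deleted exons. Reads of Mbd2 were at 280.3 to 700.2 CPM in MBD2aΔGR, 253 to 325 CPM in MBD2aR181C and 335 to 356 CPM in MBD2t. In MBD2a they were at 67.0 to 87.2 CPM, which overlapped the 64.2 to 70.9 CPM of Mbd3 KO, so the gene counts do not show the MBD2a construct. By Western blot of ESC lines, the paper reports equal protein levels of MBD2a and MBD2aΔGR. That blot is of ESCs and these reads are of NPCs, so the level of the construct in NPCs was not tested. Neural progenitor markers, 7 genes in sum, reached 799 to 1030 CPM in WT, while Mbd3 KO had 66.0 to 108 CPM, MBD2a 76.1 to 159 CPM and MBD2t 96.1 to 113 CPM, so these 3 lines lack most of the labelled cell type's markers. ESC markers were at 26.1 to 202 CPM in WT and 350 to 1090 CPM in Mbd3 KO, and trophoblast markers at 26.4 to 56.9 and 647 to 858 CPM. Parietal endoderm markers stood apart in 1 library of MBD2aΔGR, s18, at 24800 CPM, against 1420 and 1790 CPM in the other 2 libraries of that line, and results that rest on s18 are given with and without it. In bulk RNA, fewer cells of a type and less RNA per cell cannot be told apart.

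Serpin reads in sum were higher in Mbd3 KO than in WT. Summed over all 63 members, they reached 400 ± 38.5 CPM in WT and 925 ± 108 CPM in Mbd3 KO (mean ± SD, n = 3 each). Of the 26 tested members, 18 rose and 1 fell, while 19.6% of all 16582 tested genes rose and 14.2% fell. Of the 18 that rose, 13 were of clade B. Among these were 8 Serpinb9 and 3 Serpinb6 copies of 1 array, which are not separate observations, so the share is not read as a trait of the whole family. A gene is said to rise or fall where its adjusted p-value in the edgeR quasi-likelihood test was under 0.05 and its log2 fold change was beyond 1 in size. The median log2 fold change was 2.28 over the 26 serpins and -0.03 over all tested genes. The 26 passed a filter on low counts that a gene can pass through 1 line alone, so the share does not stand for all 63 members.

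**Figure D1:**
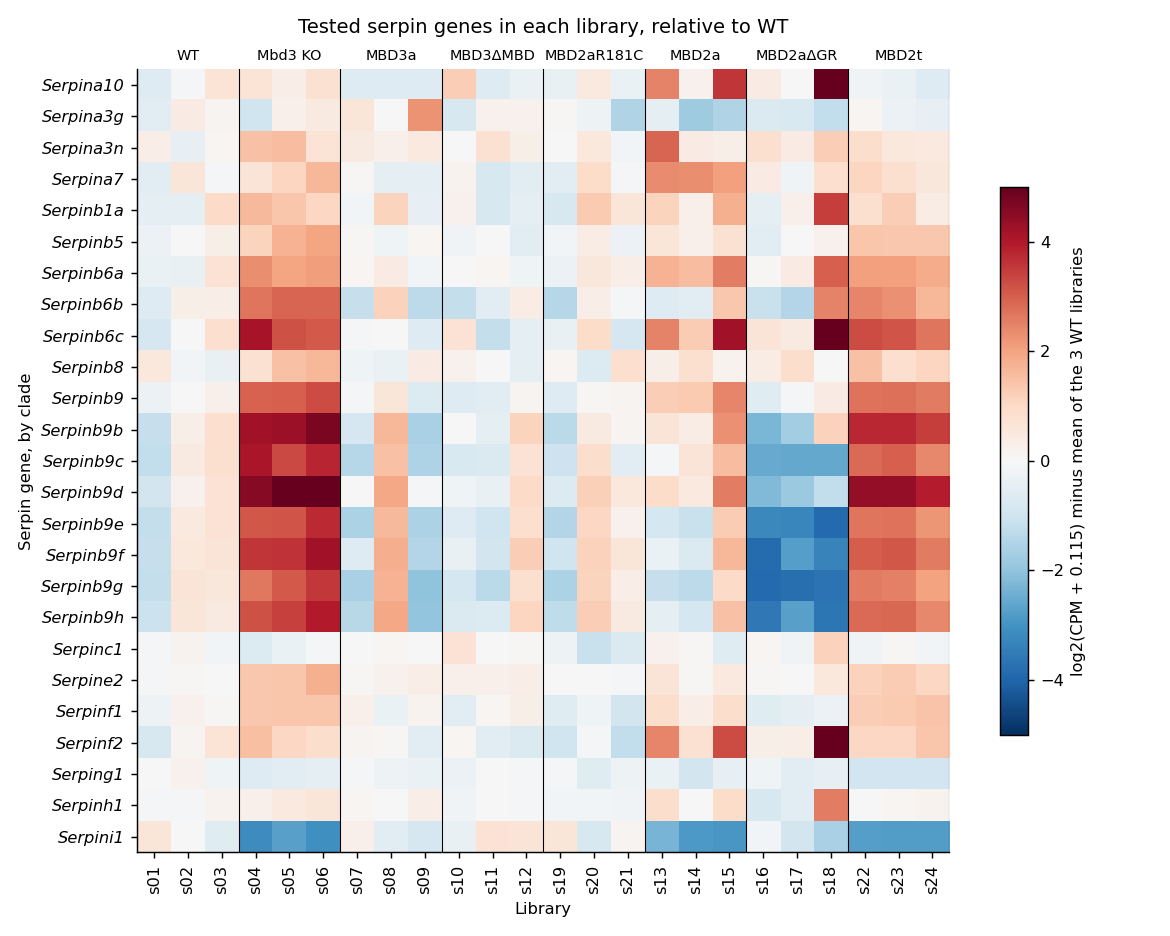
Heat map of 25 of the 26 tested serpins (rows, by clade) in the 24 libraries (columns, s01 to s24, grouped by line). Colour is log2(CPM + 0.115) minus the mean of the 3 WT libraries, red for higher and blue for lower. The 8 Serpinb9 rows are red in Mbd3 KO and MBD2t and mostly blue in MBD2aΔGR, Serpini1 is blue in Mbd3 KO, MBD2a and MBD2t, and s18 differs from the 2 other MBD2aΔGR libraries.

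The composition of the serpin reads changed as well. Serpinh1, the collagen chaperone, was the most abundant member per kilobase of exon in both lines, with a mean level of 102.6 CPM per kb in WT and 140.6 CPM per kb in Mbd3 KO. It took 62.5% ± 1.73 of all serpin reads in WT and 37.1% ± 2.53 in Mbd3 KO. The 8 Serpinb9 genes took 5.57% ± 2.64 in WT and 28.7% ± 3.33 in Mbd3 KO. Next to Serpinh1, the highest mean levels per kilobase in WT were those of Serping1 (10.56 CPM per kb) and Serpine2 (10.21 CPM per kb), and in Mbd3 KO those of Serpine2 (29.19 CPM per kb) and Serpinb9e (28.93 CPM per kb).

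The Serpinb9 genes moved as a block. All 8 rose in Mbd3 KO, with log2 fold changes between 2.95 and 5.27 and standard errors between 0.35 and 0.82. Summed over the group, WT had 9.21, 27.7 and 31.5 CPM, and Mbd3 KO had 224, 239 and 341 CPM. The lines did not overlap for the sum, although WT itself spread 3.42-fold. For Serpinb9f, Serpinb9g and Serpinb9h, whose reads cannot be assigned with certainty, the joint sum was 3.54, 12.7 and 12.4 CPM in WT and 74.4, 86.7 and 126 CPM in Mbd3 KO.

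Serpinb9d changed most. Its level was 0.161, 0.495 and 0.755 CPM in WT and 12.4, 17.5 and 25.8 CPM in Mbd3 KO (log2 fold change 5.27 ± 0.57, adjusted p = 2.68e-07). All Mbd3 KO libraries lay above all WT libraries. Serpinb9b, with 1.34, 3.85 and 5.67 CPM in WT and 59.7, 61.7 and 84.8 CPM in Mbd3 KO, had the highest mean CPM of the 8 in Mbd3 KO (log2 fold change 4.24 ± 0.82), though DESeq2 gave it no adjusted p. Serpinb9 itself, the granzyme B inhibitor, was at 1.66, 2.09 and 2.46 CPM in WT and 16.7, 17.2 and 20.4 CPM in Mbd3 KO, with the smallest spread of the group (3.12 ± 0.35).

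Serpinb9c was at 0.242, 1.05 and 1.34 CPM in WT and 14, 8.26 and 11.8 CPM in Mbd3 KO (3.67 ± 0.54). Serpinb9e was at 2.25, 7.45 and 8.81 CPM in WT and 46.5, 48 and 72.1 CPM in Mbd3 KO (3.16 ± 0.78). The log2 fold changes of the 3 genes with shared reads were 3.67 for Serpinb9f, 3.46 for Serpinb9h and 2.95 for Serpinb9g. Granzyme B, the protease that Serpinb9 inhibits, was close to absent: Gzmb had 5 reads over all 24 libraries and at most 1 in any of them. The summed trophoblast markers were higher beside these genes (647 to 858 CPM, against 26.4 to 56.9 CPM in WT), as were blood cell markers (35.0 to 48.9 CPM, against 2.5 to 4.5 CPM, with 5 of 5 tested called higher), and their part in the result was not tested.

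**Figure D2:**
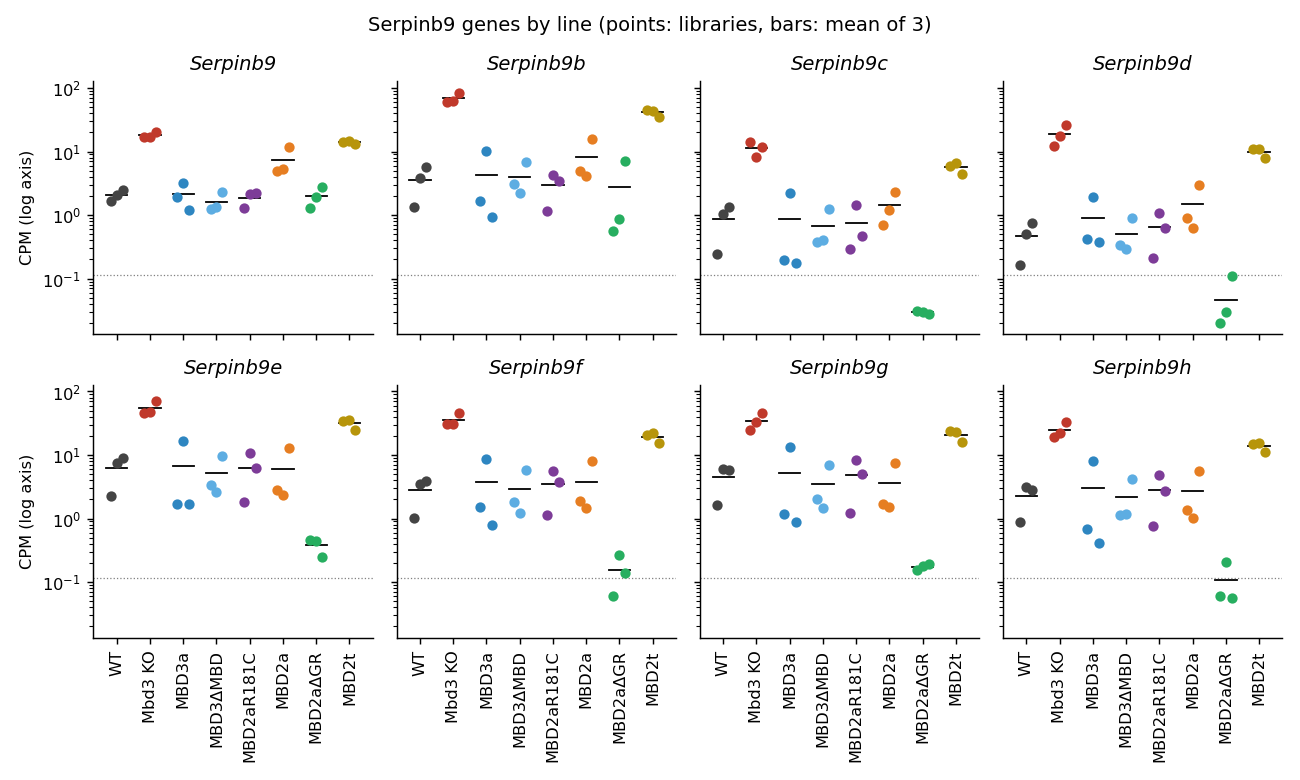
Level of the 8 Serpinb9 genes in each line (CPM, log axis). Points are the 3 libraries of a line, the short bars are their means, and the dotted line is the largest CPM that a count of 0 allows (0.115), with libraries at 0 drawn at 0.02. The Mbd3 KO and MBD2t points lie above the others for every gene, and for Serpinb9c to Serpinb9h the MBD2aΔGR points lie lowest.

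The 3 tested Serpinb6 genes of the same array rose too. Serpinb6b lies before the Serpinb9 genes, and Serpinb6c and Serpinb6a lie after them. Serpinb6a, an inhibitor of cathepsin G found in many cell types, was at 15.1, 14.6 and 32 CPM in WT and 97.6, 75.7 and 82.7 CPM in Mbd3 KO (log2 fold change 2.05 ± 0.53, adjusted p = 0.00277). Its reads may include antisense neighbours, as said above. Serpinb6c rose from 0.107, 0.275 and 0.584 CPM to 6.72, 3.50 and 3.15 CPM (3.73 ± 1.23), and without the WT library s01 its adjusted p was 0.0502. Serpinb6b was at 0.564, 1.16 and 1.22 CPM in WT and 6.63, 7.83 and 7.75 CPM in Mbd3 KO (2.91 ± 0.77). Of the 4 other genes of the array that were not tested, Serpinb1b, Serpinb1c, Serpinb6d and Serpinb6e, none had more than 5 reads in a library. Serpinb1a, an inhibitor of neutrophil proteases, did not pass the test (1.76 ± 1.14, adjusted p = 0.188).

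**Figure D3:**
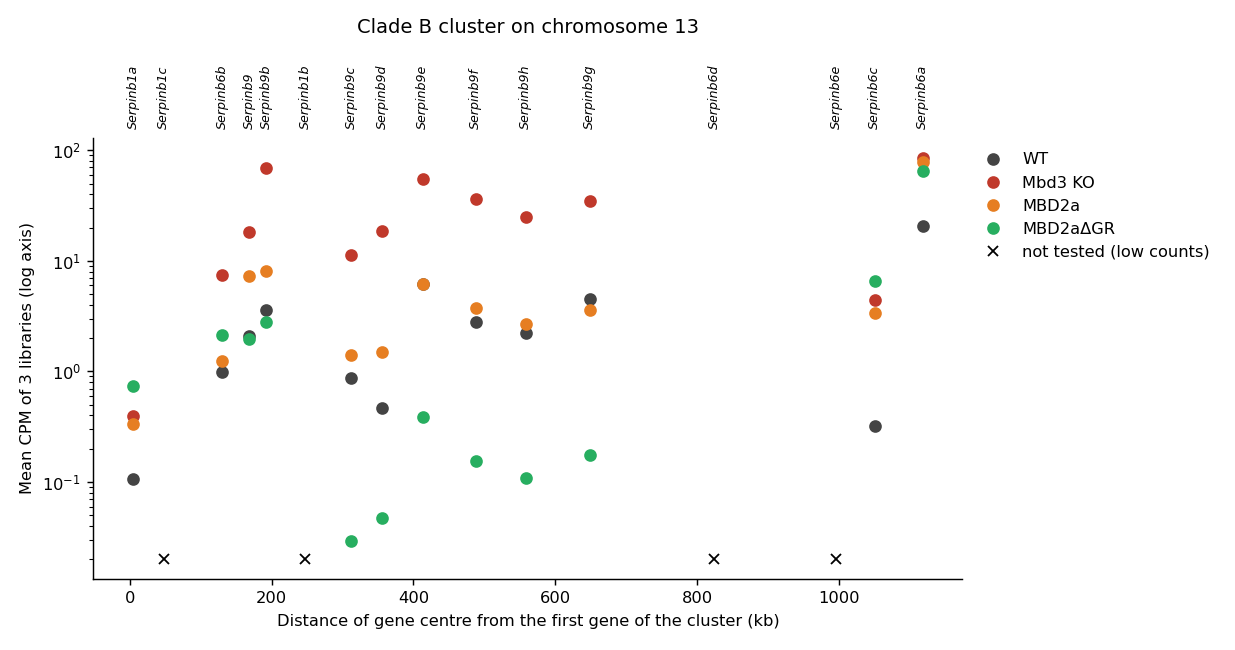
Mean CPM of 3 libraries (log axis) for the 16 clade B genes of the chromosome 13 array, placed by the distance of their centre from the first gene (kb). Crosses at the bottom mark the 4 genes that were not tested. From Serpinb9c to Serpinb9g the Mbd3 KO mean is the highest of the 4 and the MBD2aΔGR mean the lowest at each tested gene, while at Serpinb6c and Serpinb6a the WT mean is the lowest.

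On chromosome 1, 2 of the 12 clade B members could be tested and both rose, at low levels. Serpinb5 (maspin), an epithelial serpin, was at 0.0268, 0.0550 and 0.0974 CPM in WT, at or under the 3-count limit in 2 libraries, and at 0.257, 0.465 and 0.555 CPM in Mbd3 KO (2.76 ± 0.50). Serpinb8, an inhibitor of furin-like proteases, was at 0.195 to 0.456 CPM in WT and 0.572 to 1.16 CPM in Mbd3 KO (1.62 ± 0.42). Serpinb2, an inhibitor of plasminogen activators, had 2 reads over all libraries, and Serpinb3a, Serpinb3b, Serpinb3c, Serpinb3d and Serpinb13 had none.

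Serpine2, the inhibitor of thrombin and plasminogen activators that is also made by glia, was at 37.1, 40.8 and 39.3 CPM in WT and 99.1, 103 and 133 CPM in Mbd3 KO (1.52 ± 0.15). The libraries of both lines lay close together and did not overlap, and no other called member had a smaller standard error.

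Serpini1 was the only tested member that fell. The neuronal serpin was at 34.1, 22 and 14.8 CPM in WT and 2.40, 3.34 and 2.59 CPM in Mbd3 KO (-3.07 ± 0.45, adjusted p = 1.39e-05). All WT libraries lay above all Mbd3 KO libraries. The summed neural progenitor markers were lower beside it, as given above, and their part was not tested. The other clade I gene, Serpini2, had 1 read in all.

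Among the other secreted serpins, changes were smaller or absent by the test. Serpinf1 (PEDF), an anti-angiogenic and neurotrophic member without protease inhibition, rose from 11, 15.4 and 13.9 CPM to 33.6, 35.5 and 35 CPM (1.37 ± 0.21). Serping1, the C1 inhibitor of complement, was lower (-0.56 ± 0.16, adjusted p = 0.00532) but within the 2-fold limit. Serpinh1, at 232, 237 and 281 CPM in WT and 300, 354 and 374 CPM in Mbd3 KO, did not pass (0.45 ± 0.53, adjusted p = 0.475), although its libraries did not overlap. Serpinf2, the plasmin inhibitor alpha-2-antiplasmin, had 1.09 ± 1.08 (adjusted p = 0.399), and Serpinc1 (antithrombin) had -0.50 ± 0.48 (adjusted p = 0.376).

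Clade A, which holds most of the liver serpins, was near the detection limit. Serpina3n, an inhibitor of chymotrypsin-like proteases, rose, with 0 to 0.0805 CPM in WT against 0.132 to 0.332 CPM (2.5 ± 0.91, adjusted p = 0.0192). Serpina7, the thyroxine carrier, rose as well, with 0.0268 to 0.193 CPM against 0.200 to 0.529 CPM (1.82 ± 0.63, adjusted p = 0.0150). Both calls were lost when single libraries were left out: the adjusted p of Serpina3n was 0.0719 without s02, 0.0516 without s03, 0.0514 without s04 and 0.0702 without s05, and that of Serpina7 was 0.0749 without s01, 0.0528 without s03 and 0.0950 without s06. Serpina3g (adjusted p = 0.996) and Serpina10 (adjusted p = 0.750) did not pass. The 5 Serpina1 copies, alpha-1-antitrypsin, summed to 0 to 5 reads in WT and 5 to 14 reads in Mbd3 KO. Serpina6, the corticosteroid carrier, had 6 reads in all libraries together.

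Proteases and receptors that serpins act on changed as well. Of 59 listed target proteases, cofactors and receptors, 39 were tested, and 20 rose and 5 fell in Mbd3 KO (background 19.6% and 14.2%). The 5 that fell are thus near the share over all tested genes. The largest changes among them were those of the kallikrein Klk6 (log2 fold change 6.44 ± 0.88), the thrombin receptor thrombomodulin, Thbd (3.32 ± 0.48), and the serine proteases Hpn (3.24 ± 0.53) and Prss22 (3.16 ± 0.40). Of the plasminogen activation system, urokinase, Plau (1.38 ± 0.22), and its receptor Plaur (2.99 ± 0.70) rose, and tissue plasminogen activator, Plat (-0.23 ± 0.45, adjusted p = 0.675), did not pass. Of 39 protease inhibitors outside the serpin family, 27 were tested, of which 15 rose and 1 fell, with the same background. The largest changes were those of Itih4 (6.07 ± 0.72), Wfdc1 (5.36 ± 0.45), Itih3 (4.42 ± 0.54) and Spink2 (3.60 ± 0.62).

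**Figure D4:**
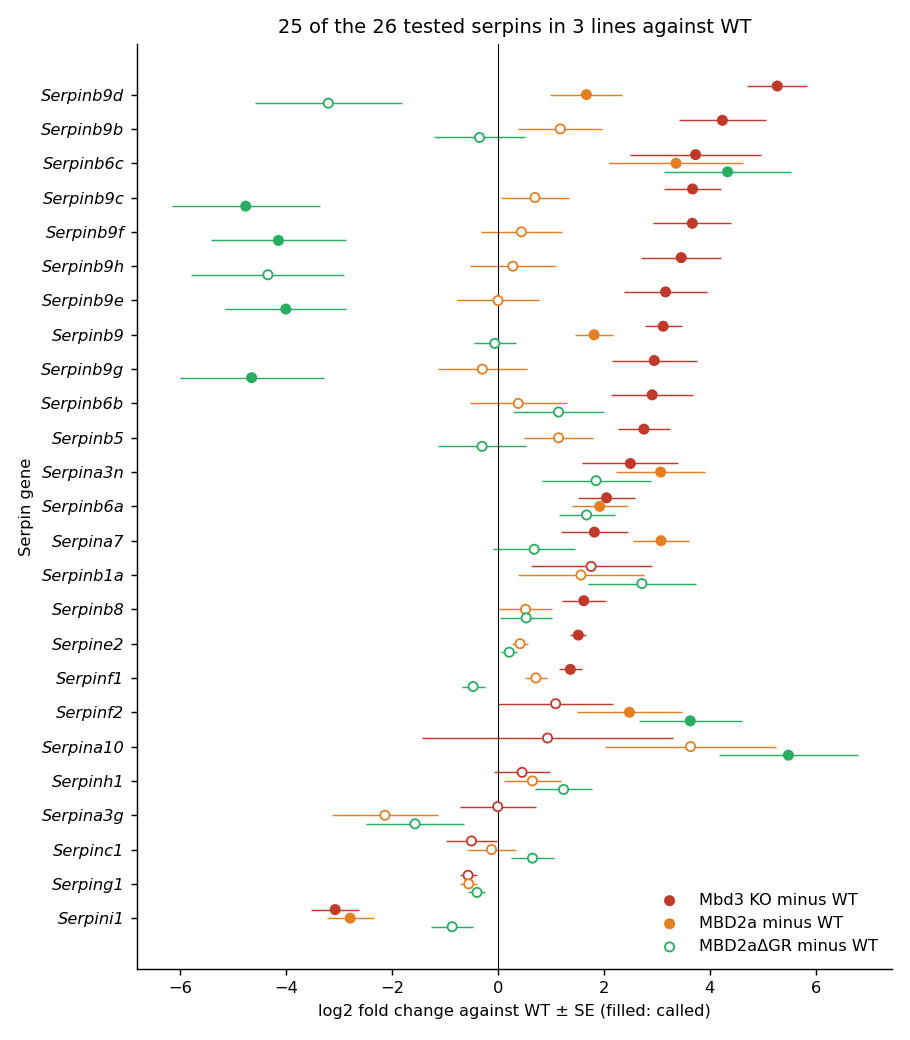
Log2 fold change against WT (± SE) of 25 of the 26 tested serpins in Mbd3 KO (red), MBD2a (orange) and MBD2aΔGR (green), ordered by the value in Mbd3 KO. Filled points passed the test with a change beyond 2-fold. The 3 comparisons share the WT libraries. The Serpinb9 copies other than Serpinb9 and Serpinb9d have open orange points between -0.30 and 1.18, whereas Serpinb6c, Serpinb6a and Serpini1 have filled orange points near the red ones.

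With MBD3a, MBD3ΔMBD or MBD2aR181C in Mbd3 KO cells, no serpin differed from WT by this test. For MBD3a the count was 0 of 26, against 0% of all tested genes higher and 0% lower, with 1 member and 293 genes at an unadjusted p under 0.05. For MBD3ΔMBD it was also 0, against 0% of genes higher and 0.0181% lower, with 0 members and 1187 genes at an unadjusted p under 0.05. For MBD2aR181C it was 0, against 0.00603% higher and 0.0121% lower, with 1 member and 655 genes. DESeq2 made 0, 0 and 0 serpin calls in these comparisons. The log2 fold changes of the 8 Serpinb9 genes lay between -0.04 and 0.91 for MBD3a, between -0.33 and 0.18 for MBD3ΔMBD and between -0.33 and 0.36 for MBD2aR181C. Their standard errors, pooled over all 8 lines, ran from 0.39 to 0.84 and were as large as most of these values.

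Against Mbd3 KO, the same 3 lines differed in most tested serpins. In MBD3a 2 rose and 17 fell (background 13.5% higher and 18.9% lower), in MBD3ΔMBD 1 rose and 17 fell (15% and 20.9%), and in MBD2aR181C 1 rose and 18 fell (13% and 18.1%). Serpini1 rose in each of the 3, by 2.69 ± 0.45, 3.41 ± 0.45 and 3.10 ± 0.45 on the log2 scale, and in MBD3a Serpina3g rose besides (1.49 ± 0.60). Serpina3g was at 1.77 CPM in s09 against 0.489 and 0.273 CPM in the 2 other MBD3a libraries, and its call was lost without s09 (0.38, adjusted p = 0.648), without s04 and without s05. The 8 Serpinb9 genes, Serpine2, Serpinf1, Serpinb5, Serpinb8, Serpina7 and the 3 Serpinb6 genes fell in all 3 lines, and Serpina3n fell in MBD2aR181C besides. In MBD2aR181C the call of Serpina7 was lost without s06, s19 or s21 and that of Serpina3n without s04, s05, s19 or s21, and in fits of only the lines compared Serpina7 was not called in any of the 3 lines.

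The MBD2a line differed from both WT and Mbd3 KO in part of the serpins. Against WT, 8 of the 26 rose and 1 fell, with a background of 16.9% and 13.7%, and the median log2 fold change was 0.71. That count of 9 was 5 without s01 and 5 without s15. Against Mbd3 KO, 0 rose and 12 fell, with a background of 0.856% and 4.4%. All 8 Serpinb9 genes were among the 12 that fell, by 1.30 ± 0.31 for Serpinb9 and by 2.98 to 3.60 for the 7 others. Serpine2, Serpinb5 and Serpinb6b also fell. This count of 12 rests on few libraries: it was 3 without s14, with Serpinb9c and Serpinb9d still among them, 6 without s13, 8 without s06, 13 without s15, and 4 in a fit of only these 2 lines. The count was 15 in a fit of all libraries but s18, which kept the 12 and added Serpina7, Serpinf2 and Serpina10. The log2 fold changes of these added members in the main fit were 1.26, 1.39 and 2.70.

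The Serpinb9 copies were close to WT in 2 of the 3 MBD2a libraries and higher in s15. Their sum was 19.3, 17.5 and 66.9 CPM, against 9.21 to 31.5 CPM in WT. Against WT, Serpinb9 (4.95, 5.21 and 11.7 CPM, log2 fold change 1.82 ± 0.35, adjusted p = 0.000310) and Serpinb9d (0.892, 0.619 and 2.96 CPM, 1.67 ± 0.68, adjusted p = 0.0412) rose. Without s15 the change of Serpinb9d was 0.67 (adjusted p = 0.484). The log2 fold changes of the 6 others were between -0.30 and 1.18, and none passed. Trophoblast markers were also highest in s15, with 551 CPM against 112 and 164 CPM in s13 and s14, and their part was not tested.

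Other members differed from WT in MBD2a and not, by the test, from Mbd3 KO. Serpini1 was at 4.40, 2.98 and 2.85 CPM, fell against WT (-2.79 ± 0.44) and had 0.28 ± 0.48 against Mbd3 KO (adjusted p = 0.787). Serpinb6a was at 64.2, 56.3 and 113 CPM, rose against WT (1.92 ± 0.53) and had -0.13 ± 0.51 against Mbd3 KO (adjusted p = 0.924). Serpinb6c was at 2.10, 0.825 and 7.16 CPM and rose against WT (3.36 ± 1.26), but not without s15, s01 or s02 (adjusted p = 0.232, 0.0908 and 0.0733). Serpinb6b, the third copy, did not follow: at 0.547, 0.619 and 2.57 CPM it fell against Mbd3 KO (-2.53 ± 0.75), a call that was lost without s04, s05, s06, s13 or s14, and had 0.38 ± 0.91 against WT. Neural progenitor markers in MBD2a (76.1 to 159 CPM) overlapped those in Mbd3 KO (66.0 to 108 CPM).

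Of the tested members of clades A and F, 2 of 4 and 1 of 2 rose in MBD2a against WT. Serpina7, at 0.921, 0.884 and 0.714 CPM, rose against WT by 3.08 ± 0.54, and its value against Mbd3 KO was 1.26 ± 0.41 (adjusted p = 0.0515). Against Mbd3 KO it was called higher without s06 (1.66, adjusted p = 0.0382) and without s15 (1.36, adjusted p = 0.0462). Serpina3n rose against WT (3.07 ± 0.84) through s13 alone, at 1.04 CPM against 0.0884 and 0.0765 CPM in the 2 others, and without s13 the change was 0.87 (adjusted p = 0.399). Serpinf2, at 5.09, 1.53 and 9.10 CPM, rose against WT by 2.48 ± 1.00 (adjusted p = 0.0414), which was lost when any of s01, s02, s03, s13 or s15 was left out. Serpina3g had a negative value (-2.13 ± 1.01, adjusted p = 0.0763) and was called lower only without s13 (-4.13, adjusted p = 0.0301).

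MBD2a was compared directly with both of its mutants, at the unequal Mbd2 read levels given above, whose part was not tested. In the first comparison, 9 members were higher and 1 was lower in MBD2a than in MBD2aR181C (background 15.1% and 12.2%). The 1 lower gene was Serpini1 (-2.81 ± 0.44), at 34.1, 12.8 and 24.8 CPM in MBD2aR181C, and the higher genes were led by Serpina10 (4.06 ± 1.69), Serpinb6c (3.52 ± 1.27), Serpinf2 (3.49 ± 1.11) and Serpina7 (2.82 ± 0.51). Serpinb6a, Serpinb9, Serpina3n and Serpinf1 were also higher. Without s15 or without s19 the count was 6, and Serpina10, Serpinf2 and Serpinb6c were among those then lost. Serpina10 was also lost without s13, s20 or s21, Serpinb6c and Serpinf2 without s21, and Serpina3n without s13. The 7 Serpinb9 copies other than Serpinb9 did not differ by the test, with log2 differences between -0.39 and 1.51.

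In MBD2aΔGR, 6 of the Serpinb9 genes, Serpinb9c to Serpinb9h, had levels below every library of every other line. They are copies in 1 array, 3 of them with shared reads, and so are not 6 separate observations. The share of all tested genes with this pattern was not counted. The joint sum of Serpinb9f, Serpinb9g and Serpinb9h was 0.276, 0.655 and 0.388 CPM, from 9 to 22 reads per library, against 3.54 to 12.7 CPM in WT, and the lowest library of any other line was s09 of MBD3a at 2.08 CPM. Serpinb9c had 1 read in each of the 3 libraries. Its pooled level was 3.30% of that in WT (exact 95% interval 0.669% to 9.92%, counting error only) and 2.02% of that in MBD2a (0.412% to 6%). Serpinb9d had 0, 1 and 4 reads, which is 10.2% of WT (3.19% to 25.3%). Serpinb9e was at 0.461, 0.447 and 0.249 CPM against 2.25 to 8.81 CPM in WT. Mesenchyme and fibroblast markers were also lowest in MBD2aΔGR, with a sum of 23.8 to 70.6 CPM against 136 to 461 CPM in WT and at least 92.8 CPM in the libraries of the other lines. Of these 8 markers, 6 were called lower than in WT, and their part was not tested.

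By the test, 7 serpins differed between MBD2aΔGR and WT, 3 higher and 4 lower, with a background of 2.69% and 2.47%. The 4 lower ones were Serpinb9c (-4.76 ± 1.40, adjusted p = 0.0396), Serpinb9g (-4.65 ± 1.36, adjusted p = 0.0414), Serpinb9f (-4.14 ± 1.28, adjusted p = 0.0496) and Serpinb9e (-4.01 ± 1.14, adjusted p = 0.0381). Serpinb9h (-4.34 ± 1.44, adjusted p = 0.0651) and Serpinb9d (-3.20 ± 1.38, adjusted p = 0.141) had changes of like size and did not pass. All 7 calls were lost when s01, s02 or s18 was left out, and in a fit of only these 2 lines. The calls of Serpinb9c, Serpinb9f and Serpinb9g were lost whichever of the 6 libraries was left out, and that of Serpinb9e without any but s16. For the 4 lower genes the log2 fold changes without s18 were close to these values (-4.73, -4.73, -4.06 and -3.76 for Serpinb9c, Serpinb9g, Serpinb9f and Serpinb9e) while the adjusted p rose to between 0.218 and 0.255. The 2 members of the group nearest the start of the array behaved otherwise, with -0.06 ± 0.39 for Serpinb9 and -0.35 ± 0.85 for Serpinb9b.

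The direct comparison with MBD2a gave more. Of the 26 members, 10 were higher and 1 was lower in MBD2a than in MBD2aΔGR, with a background of 10.6% and 8.02%. Serpinb9c (5.46 ± 1.28), Serpinb9d (4.87 ± 1.10), Serpinb9h (4.63 ± 1.41), Serpinb9f (4.59 ± 1.24), Serpinb9g (4.36 ± 1.39), Serpinb9e (4.01 ± 1.14) and Serpinb9 (1.88 ± 0.36) were higher, and Serpinb9b was not by the test (1.53 ± 0.82, adjusted p = 0.156). Serpina7 (2.39 ± 0.50) and Serpinf1 (1.18 ± 0.22) were also higher, and Serpini1 was lower (-1.93 ± 0.44). Leaving out s15 removed Serpinb9e to Serpinb9h from these calls, with log2 differences between 2.78 and 3.46. Serpinb9g was also lost without s16 or s17 and Serpinb9h without s16, and leaving out s18 raised the count to 17. Mesenchyme markers moved with this contrast, at 23.8 to 70.6 CPM in MBD2aΔGR and 92.8 to 148 CPM in MBD2a, as did trophoblast markers, at 22.1 to 47.7 and 112 to 551 CPM. ESC markers did so too, at 73.1 to 416 and 434 to 792 CPM. Neural progenitor markers moved the other way, at 453 to 928 CPM in MBD2aΔGR and 76.1 to 159 CPM in MBD2a, with all 7 called lower in MBD2a. The part of these lists was not tested.

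Against Mbd3 KO, 4 serpins rose and 14 fell in MBD2aΔGR (background 9.86% and 15.3%). The 8 Serpinb9 genes fell, with log2 fold changes from -3.18 ± 0.35 for Serpinb9 to -8.44 ± 0.94 for Serpinb9c and -8.48 ± 0.81 for Serpinb9d. The last 2 fitted values depend on how the model treats counts near 0, and the pooled reads of Serpinb9c were 0.264% of those in Mbd3 KO (exact 95% interval 0.0544% to 0.774%). Serpini1 rose by 2.21 ± 0.45, to 20.1, 11.7 and 7.17 CPM. It was the 1 member that still rose without s18, when 16 fell. Serpina10, Serpinf2 and Serpinc1, the other members that rose, were then lost, with -0.73, -0.88 and 0.44, and Serpinb6c (-3.27), Serpinb6a (-1.89) and Serpinh1 (-1.13) were called lower.

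The higher serpins of MBD2aΔGR came from 1 library. In s18, Serpina10, the protein Z-dependent inhibitor of factor Xa, was at 10.6 CPM against 0.123 and 0.0596 CPM in s16 and s17, Serpinf2 at 32.7 against 1.08 and 1.10 CPM, and Serpinb6c at 19 against 0.491 and 0.417 CPM. These 3 genes were the ones called higher than WT (5.48 ± 1.32, 3.63 ± 0.97 and 4.33 ± 1.20), and without s18 their log2 fold changes were 0.20, 0.20 and 0.45. Serpinh1 reached 1456 CPM in s18 against 142 and 170 CPM, Serpinb6a 151 against 20.1 and 25.8 CPM, and Serpinb1a 2.05 against 0.0307 and 0.119 CPM. Of the 26 tested members, 7 had their highest level of all 24 libraries in s18, the 6 named here and Serpinc1. The share of all tested genes that were highest in s18 was not counted, so this number is not read as particular to serpins.

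Untested members with few reads elsewhere were also found in s18, with 118 reads of Serpind1 (heparin cofactor II), 74 of Serpina3m and 34 over the 5 Serpina1 copies. Of the 37 untested members, 11 were highest there, some on few reads, such as 1 of Serpina5 and 2 of Serpina3c. The share over all genes was not counted here either. Parietal endoderm markers (24800 CPM, against 1790 and 1420 CPM in s16 and s17) and markers of primitive and visceral endoderm (1160, against 107 and 81.8 CPM) were higher in s18 as well. In MBD2a, s13 and s15 were above s14 in the same genes, with 5.09 and 9.10 against 1.53 CPM for Serpinf2 and 0.863 and 1.99 against 0.0884 CPM for Serpina10. Their parietal endoderm markers were at 4640 and 5370 CPM against 1100 CPM in s14. The part of these markers in the serpin levels was not tested.

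**Figure D5:**
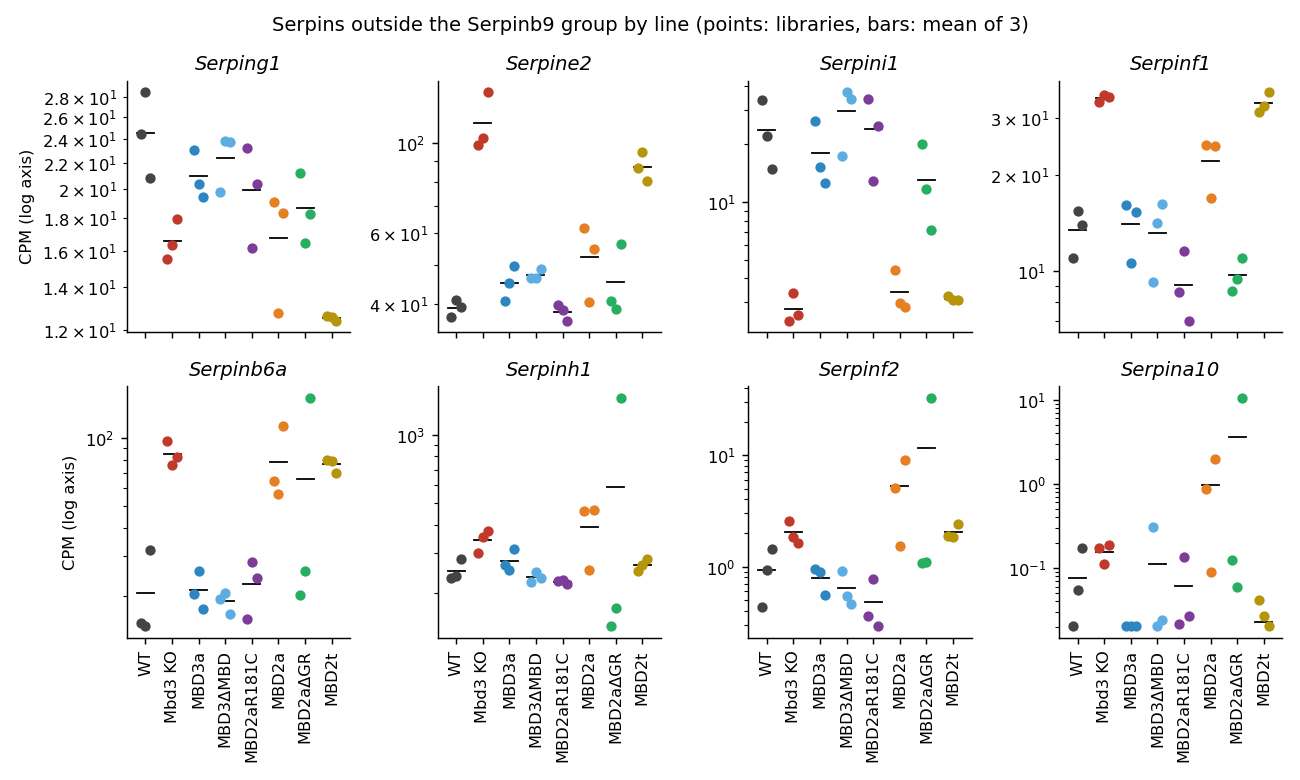
Level of 8 serpins outside the Serpinb9 group in each line (CPM, log axes with separate ranges). Points are libraries, short bars are means of 3, and libraries at 0 are drawn at 0.02. Serpine2 and Serpinf1 are highest in Mbd3 KO and MBD2t, Serpini1 is lowest in Mbd3 KO, MBD2a and MBD2t, and 1 MBD2aΔGR library lies far above the 2 others for Serpinb6a, Serpinh1, Serpinf2 and Serpina10.

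No serpin differed between MBD2t and Mbd3 KO by the test. Against Mbd3 KO, 0 of 26 differed (background 0.00603% higher and 0.0181% lower), with 4 members and 571 of all genes at an unadjusted p under 0.05 and 0 calls of serpins by DESeq2. The 4 members were Serpinb9c (-1.01 ± 0.44), Serpinb9d (-0.91 ± 0.40), Serping1 and Serpine2. The log2 fold change was above 0 in 3 of the 26 members and in 0 of the 14 of clade B (medians -0.50 and -0.74, against -0.01 over all genes). For the 8 Serpinb9 genes the MBD2t libraries lay below all Mbd3 KO libraries, with a sum of 127 to 171 CPM against 224 to 341 CPM. These 8 are copies in 1 array, and the MBD2t libraries are repeats of 1 clone. The share of all genes without overlap was not counted, so no difference is read from this. Against WT, 16 rose and 1 fell (18.2% and 15.1%). All 8 Serpinb9 genes rose, by 2.21 to 4.36, with Serpinb9d at 11, 10.9 and 7.84 CPM. Serpinb9b (3.50 ± 0.80) and Serpinb6c (3.24 ± 1.26) rose too, and Serpini1 fell (-2.91 ± 0.44) to 3.22, 3.10 and 3.09 CPM. The call of Serpinb6c was lost without s01, s02, s22 or s23, those of Serpinb6b and Serpinb9g without s01 or s22, and that of Serpinb9e without s01. The spread of these 3 libraries holds no difference between clones.

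Libraries of 1 line differed several-fold in the Serpinb9 genes. The summed level of the 8 genes varied 9.86-fold among the MBD3a libraries (9.33, 64.0 and 6.49 CPM), 4.86-fold in MBD2aR181C (7.94, 38.6 and 24.4 CPM) and 3.51-fold in MBD3ΔMBD (13.5, 10.7 and 37.7 CPM), against 1.52-fold in Mbd3 KO and 1.34-fold in MBD2t. In MBD2aΔGR the sum varied 4.03-fold, less than Serpina10, Serpinb6c or Serpinf2 in the same libraries. In several lines 1 library was highest for most of the genes: s08 was the highest MBD3a library for 8 of 8 genes, s12 the highest MBD3ΔMBD library for 8 of 8, s15 the highest MBD2a library for 8 of 8 and s20 the highest MBD2aR181C library for 7 of 8. In Mbd3 KO s06 was highest for 7 and in WT s03 for 6, while MBD2t split 5 and 3 between s23 and s22 and MBD2aΔGR split 4, 2 and 2 over s18, s16 and s17. In 6 of the 8 lines the library with the highest Serpinb9 sum was also the one with the highest sum of trophoblast markers, the exceptions being WT and Mbd3 KO. Such a match is not particular to trophoblast. The libraries s15, s18 and s20 were also highest in their lines for ESC, blood cell, parietal endoderm and primitive and visceral endoderm markers. In s18, Serpinb9b alone was at 7.01 CPM of the sum of 10.5 CPM. The part of these markers was not tested. In MBD3a, MBD3ΔMBD and MBD2aR181C the sum stayed below all Mbd3 KO and MBD2t libraries (127 to 341 CPM).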

How the data were processed

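Poly(A) RNA of 24 NPC libraries from 8 lines was analysed, and 6 ChIP samples of the series were not analysed here. The authors made the deposited counts by trimming single-end reads with Trim Galore, aligning them with STAR and counting reads per gene on mm9 with QuasR, and the table holds raw counts for 25400 genes. Multiple-mapping and strand settings are not given in the sources used here.

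All 24 libraries entered 1 fit in edgeR 4.0.16 (R 4.3.3) with TMM scaling, a filter on low counts by line (16582 genes) and the quasi-likelihood test with Benjamini-Hochberg adjustment over all tested genes. A gene was called at an adjusted p under 0.05 with a log2 fold change beyond 1 in size, and ± after a log2 fold change is the standard error. Lines are compared with WT, with Mbd3 KO, or MBD2a with its mutants, so that comparisons share libraries. P-values from this fit reflect a spread pooled over all lines, not that of the compared lines alone. Within a line, the spread is between 3 clones, and for MBD2t between technical repeats. A permutation test of 3 against 3 libraries cannot go below p = 0.1 and was not used.

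The members, gene lists and tests were chosen with earlier results of these data known. Genes named in the text were the called serpins with the largest changes (12 for Mbd3 KO against WT, 5 for other comparisons with WT and of MBD2a with its mutants, 3 against Mbd3 KO), serpins of known role, and the 4 called genes with the largest changes of each partner list. Counts cover all members, and 1 member is not reported here by name or value. Further members are named to complete a group or account for a call, chosen after their values were seen. On counts simulated for Mbd3 KO against WT over 16323 genes, the test called 43.1% of genes changed 2-fold, 81.8% of those changed 4-fold, 92.3% of those changed 8-fold and 6 of 16127 unchanged genes. A true 2-fold change lies at the fold limit of a call, which holds that first share down. The simulation changed 65, 66 and 65 genes by these folds, far fewer than were called in the data, so its shares need not hold for the data. Alternatives were other scalings and filters, DESeq2 1.42.0, a fit of only the lines compared and leaving out each library.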

Additional observations from a re-analysis of the deposited data

How the results depend on the processing

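The number of called serpins stayed within 1.5 times its value under other scalings and filters, under DESeq2 and under the earlier form of the quasi-likelihood test, in all 15 comparisons. A fit of only the lines compared gave 0 calls in place of 7 for MBD2aΔGR against WT and 4 in place of 12 for MBD2a against Mbd3 KO, and the cause was not tested. With each library left out in turn, the count ran from 5 to 11 for MBD2a against WT, from 0 to 10 for MBD2aΔGR against WT, from 3 to 13 for MBD2a against Mbd3 KO, from 8 to 17 for MBD2a against MBD2aΔGR and from 6 to 13 for MBD2a against MBD2aR181C. Log2 fold changes against Mbd3 KO in MBD2aΔGR ran from -0.88 to 3.01 for Serpinf2 and from -1.13 to 1.18 for Serpinh1, and those of MBD2a against MBD2aΔGR ran from -1.80 to 2.28 for Serpinf2 and from -0.99 to 1.33 for Serpinh1. The sign of these 4 values turned without s18, as did that of Serpina10 (to -0.73 and 3.43) and Serpinb6c (to -3.27 and 2.91) in the same comparisons. DESeq2 gave no adjusted p for Serpinb9b, which leaves its calls without that check. Scaling by library size alone put the median log2 fold change of all genes beyond 0.1 in size in 6 comparisons (-0.15 to 0.14). The legacy test and the fit without s18 were added after seeing the data. That fit gave 15 calls in place of 12 for MBD2a against Mbd3 KO. No paired analysis was possible because the columns carry library numbers and no replicate number. Depth limits clade A, where most members had too few reads to be tested.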
